A study of Mus musculus with 3 samples.

Results

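The 7 genes described here write, maintain or erase 5-methylcytosine: *Dnmt1*, *Uhrf1*, *Dnmt3a*, *Dnmt3b*, *Tet1*, *Tet2* and *Tet3*. They were chosen by name among 21938 protein-coding genes, and in each of 4 ATAC-seq peak lists the peaks overlapping a gene body extended by 10 kb on both sides were taken. ATAC-seq cuts open chromatin with a transposase, and a peak is a stretch where cuts pile up. Overlapping peaks of the lists were merged, which gave 50965 regions in all and 31 in the windows of the 7 genes.

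The lists came from transformed murine pre/pro-B-cells, grown from bone marrow of mice homozygous either for wildtype CDK6 (WT, *Cdk6*+/+) or for the kinase-dead mutant CDK6 K43M (K43M, *Cdk6* KM/KM), with 2 lines per genotype. All lines carried retrovirally delivered BCR-ABL(p185), so an untransformed state is not part of the comparison, and each list stands for 1 line. GEO's labels name WT replicate 2, K43M replicate 1 and K43M replicate 2. The remaining list has no labelled sample. It is called WT unnumbered because its own name holds WT and no replicate label. The design text of the series counts a WT line deposited earlier among its 2 WT lines. Whether this list is that line is not given by the labels. CDK6 is a cell cycle kinase that also acts on chromatin, and the design asks which chromatin differs once its kinase activity is lost. The K43M change is a point mutation, so peak lists cannot check the genotype.

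DNA methylation is copied after replication by DNMT1, which UHRF1 brings to hemimethylated CpG sites. DNMT3A and DNMT3B set new methyl groups, and the TET enzymes oxidise 5-methylcytosine as the first step of its removal. In the blood system *DNMT3A* and *TET2* are among the genes most often mutated in clonal haematopoiesis and leukaemia. Open chromatin at these genes describes their regulatory DNA and not their RNA, their protein or the methylation of the genome.

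Values are given below with the WT lists first, unnumbered before replicate 2, and the K43M lists after them, replicate 1 before replicate 2. The WT lists held 33038 and 34248 peaks and the K43M lists 39038 and 34752. Read totals are not part of the lists. At the genome-wide background the weakest listed peak had 6 or 7 transposase cuts (read ends, each extended to 200 bp) at its summit. This floor holds only at that background. As recovered from the lists, the genome-wide background was 65.3 and 56.7 read ends per 10 kb in WT and 55.1 and 48.4 in K43M. A region without a peak thus fell short of the peak threshold and was not shown to be closed. B-lineage markers had a promoter peak in every list for 7 of 8 genes, *Cd79b* lacking one in K43M replicate 2. None of 4 T-cell and none of 3 erythroid markers had one. Of 4 myeloid markers, *Lyz2* had a promoter peak in both WT lists, with fold enrichments of 7.50 and 7.09, and in neither K43M list. Of 4 markers of other tissues, *Gfap* had one in WT replicate 2. Whether this *Lyz2* difference bears on the regions below was not tested.

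The promoters of the 7 genes were largely shared between the genotypes. All genes except *Tet1*, 6 of 7, had a promoter peak in each of the 4 lists, a pattern held by 47.6% of protein-coding genes. *Tet1* had a peak in both K43M lists and in neither WT list, a pattern held by 439 protein-coding genes or 2.00%. A promoter here is the stretch from 2000 bp before to 200 bp after an annotated start. Of the 69 annotated transcript starts of the 7 genes, 31 had a peak in all 4 lists, 31 had none and 7 had one in some lists.

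Of the 31 regions, 16 had a peak in all 4 lists, against a background of 41.2% of all regions. A further 9 had a peak in 1 list, against 28.7%. 4 regions were strictly K43M-only, with a peak in both K43M lists and in no WT list, against 7.64% of all regions, and 0 were strictly WT-only, against 4.51%. The strictly K43M-only regions lay in the windows of *Dnmt3a* (2 regions), *Tet1* (1) and *Tet2* (1), thus in 3 of 7 windows. Among all protein-coding genes 13.6% had a strictly K43M-only region in the same window and 7.05% a strictly WT-only one, although windows were not matched for length. The 7 genes span 20.2 to 108 kb.

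**Figure D1:**
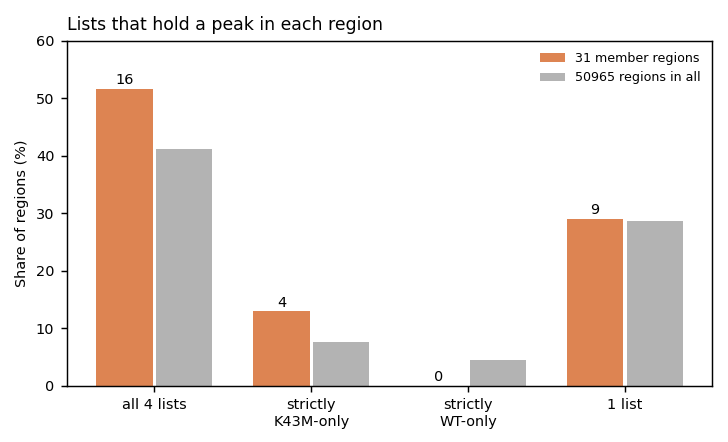
Share of regions (%) by the lists that hold a peak, for the 31 regions in the windows of the 7 genes (orange, with their number above the bar) and for all 50965 regions (grey). The member regions include 16 in all 4 lists, 4 strictly K43M-only, 0 strictly WT-only and 9 in 1 list; the 2 that remain are not drawn.

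The windows together held 18 and 23 peaks for WT, and 27 and 28 for K43M. Both K43M lists were above both WT lists. The means were 20.5 ± 3.54 in WT and 27.5 ± 0.707 in K43M (SD, n = 2 each), a difference of 7 peaks (exact permutation test, two-sided p = 0.33, the smallest p that 2 against 2 lists can give). With the same number of peaks taken from each list, 33038, the difference was 3.5 peaks (exact permutation test, two-sided p = 0.667). A region can hold several peaks of 1 list, and counted as regions the windows held 17 and 20 in WT and 26 and 23 in K43M. The *Dnmt3a* window alone held 9 and 9 peaks in WT and 12 and 14 in K43M. These fell in 8 and 8 regions in WT and 12 and 10 in K43M. How many of all genes show such a difference was not counted.

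**Figure D2:**
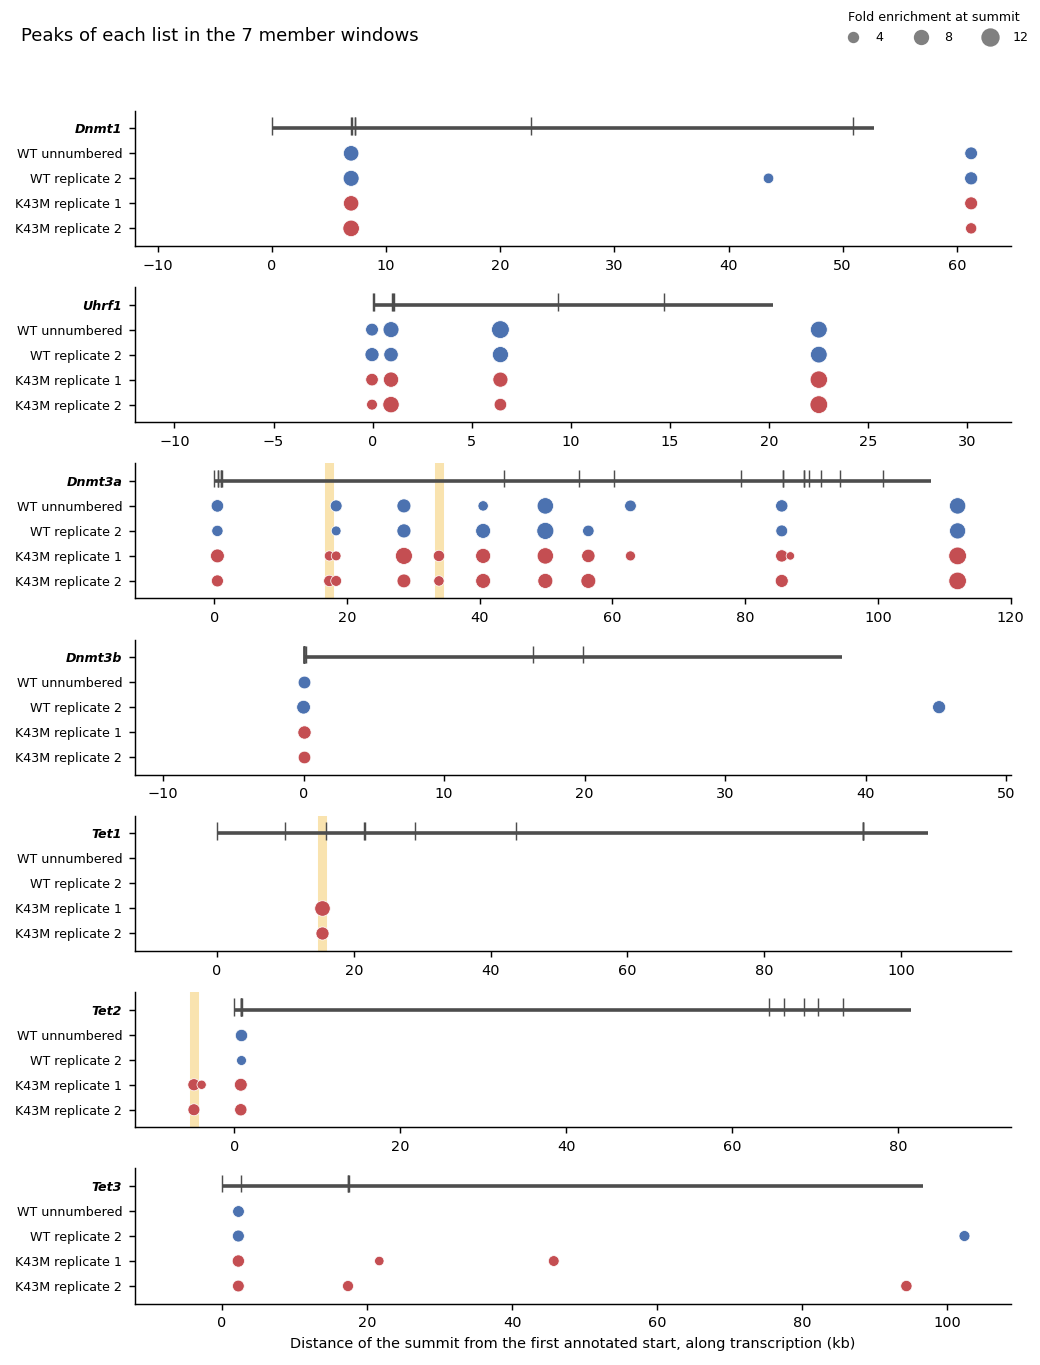
Peaks in the window of each gene, with the distance of the summit from the first annotated start along transcription (kb) on the horizontal axis and one row per list (blue WT, red K43M). The area of a point gives the fold enrichment, dark ticks are annotated starts on the gene body, and yellow bands mark the 4 strictly K43M-only regions, 2 in *Dnmt3a* and 1 each at *Tet1* and *Tet2*.

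The strictly K43M-only regions of *Tet1* and *Dnmt3a* are shown as examples of regions with a peak in both K43M lists and no peak in the WT lists. The stretches give 100 bases on each side of the summit of the better ranked list, on the plus strand of GRCm38 (mm10), and capitals mark motif matches. In these and later sequences, bases annotated as UTR were left out.
Tet1 intron, before Tet1-209, chr10:62893598-62893798: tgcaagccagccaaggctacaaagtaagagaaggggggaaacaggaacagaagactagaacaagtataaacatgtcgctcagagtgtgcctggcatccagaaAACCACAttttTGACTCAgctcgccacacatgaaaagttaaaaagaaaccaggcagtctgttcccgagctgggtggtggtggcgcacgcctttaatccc
Dnmt3a first intronic region, chr12:3823232-3823432: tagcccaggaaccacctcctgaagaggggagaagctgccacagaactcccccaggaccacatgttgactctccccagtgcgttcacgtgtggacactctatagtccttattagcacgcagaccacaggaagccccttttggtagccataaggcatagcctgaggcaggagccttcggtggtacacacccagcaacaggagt
Dnmt3a second intronic region, chr12:3839747-3839947: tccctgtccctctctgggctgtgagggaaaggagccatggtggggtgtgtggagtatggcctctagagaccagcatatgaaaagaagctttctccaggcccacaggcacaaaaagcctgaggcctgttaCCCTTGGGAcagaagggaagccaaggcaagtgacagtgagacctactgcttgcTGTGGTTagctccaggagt

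The capitals in the *Tet1* stretch are a RUNX motif (TGTGGTT, here on the minus strand) and an AP-1 motif (TGACTCA or TGAGTCA). In the second *Dnmt3a* stretch they are an EBF1 motif (CCCNNGGGA) and a RUNX motif, and the first *Dnmt3a* stretch held none of the 12 motifs searched on both strands. Within 100 bases of the summit, 9.71% of all 50867 regions on assembled chromosomes held the RUNX motif, 5.92% the AP-1 motif and 10.1% the EBF1 motif. Among the strictly K43M-only regions of the series the shares were 9.43% for RUNX, 8.01% for AP-1 and 14.3% for EBF1. None of these 3 regions was rich in CpG. A CpG-rich summit, with over 50% GC and an observed to expected CpG ratio over 0.6 across 500 bases on each side, was seen in 10.5% of the 3893 strictly K43M-only regions of the series and in 36.4% of the regions of all 4 lists. Across those 500 bases on each side the CpG ratios were 0.177 at *Tet1*, and 0.163 and 0.104 in *Dnmt3a*. Repeats masked in the reference made up 42.3% of the *Tet1* stretch, and 0% and 19.9% of the *Dnmt3a* stretches.

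*Dnmt1*, the maintenance methyltransferase on chromosome 9 (minus strand), had 1 promoter region, at chr9:20952212-20953225, and it was open in all lists. Fold enrichment is the ratio of the cut pileup at the summit to the local background of the same library, with 1 added to each. Here it was 10.5 and 11.1 in WT and 10.4 and 11.9 in K43M. The groups overlapped, with 10.8 ± 0.482 in WT and 11.1 ± 1.04 in K43M (SD, n = 2 each). The summit lay 36 bp after the start of Dnmt1-201 in a UTR exon, and 4 of the 7 starts (Dnmt1-201, Dnmt1-203, Dnmt1-205 and Dnmt1-207) shared this peak. The first annotated start, Dnmt1-202, lies 6909 bp upstream of Dnmt1-201 and had no peak in any list. Within 100 bases of the summit the sequence held 2 stretches matching the NRF-1 motif (GCGCANGCG), namely GCGCAAGCG and GCGCATGCG, the latter also matching on the other strand. The NRF-1 motif was found at 2.93% of all regions and at 6.16% of those in all lists. Most of this stretch is UTR and is not shown. A weak intronic peak (fold enrichment 4.87) was listed in WT replicate 2 alone, and a region 8574 bp downstream, in all lists, lay at the promoter of *Eif3g*, which encodes a translation initiation factor.

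*Uhrf1*, which recognises hemimethylated DNA, lies on chromosome 17 and had 4 regions in its window, all in every list. Its main starts form 2 clusters, the second beginning 992 bp after the first, and each had a region of its own. The sequences upstream of both clusters are shown because they share the same NF-Y match, CCAATCA, in capitals. The NF-Y motif (CCAATCA or CCAATGA) was held by 6.78% of all regions.
Uhrf1 first start, chr17:56303193-56303320: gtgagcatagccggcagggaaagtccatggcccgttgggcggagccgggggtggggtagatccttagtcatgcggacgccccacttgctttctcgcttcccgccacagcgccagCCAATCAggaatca
Uhrf1 second start, chr17:56304152-56304312: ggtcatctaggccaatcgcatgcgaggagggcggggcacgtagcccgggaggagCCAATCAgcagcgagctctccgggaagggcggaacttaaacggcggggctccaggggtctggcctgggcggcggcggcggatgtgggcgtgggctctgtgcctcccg
The first region (chr17:56303016-56303698), with its summit 28 bp before Uhrf1-201, had fold enrichments of 7.14 and 8.69 in WT and 6.88 and 5.16 in K43M. It spans the starts of Uhrf1-201 and Uhrf1-203 and also lies within 2000 bp of the starts of the second cluster. Both WT lists were above both K43M lists, with 7.92 ± 1.09 in WT and 6.02 ± 1.22 in K43M (SD, n = 2 each). An exact permutation test of 2 against 2 lists cannot give a two-sided p under 0.33. Groups that do not overlap, here and below, thus carry little weight alone, and their share over all regions was not counted. The log2 difference of median-centred fold enrichment, K43M minus WT, was -0.40 (95% CI -0.86 to 0.05, limma adjusted p = 0.477), and it was -0.57 to -0.24 with 1 library left out, the smallest without K43M replicate 2. The second region (chr17:56303801-56304646), with its summit 61 bp before Uhrf1-202, had 11.1 and 9.13 in WT and 10.2 and 11.7 in K43M, and the groups overlapped. This second region was the higher of the pair in all 4 lists.

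An intronic region of *Uhrf1*, 6453 bp after the first start (chr17:56309415-56310078), had the largest difference in fold enrichment among the 16 regions that all lists held, with all 4 lists in the fit. On summit pileups the *Tet2* promoter differed more, and without WT replicate 2 a *Dnmt3a* intronic region did (both given below). Its fold enrichment was 13.8 and 11.4 in WT, against 9.95 and 6.92 in K43M. Both WT lists were above both K43M lists. The log2 difference was -0.59 (95% CI -0.96 to -0.22, limma unadjusted p = 0.00417, adjusted p = 0.178), which missed the threshold. Without WT replicate 2 it was -0.73 with a limma adjusted p of 0.0276, the lone WT list being assumed to vary like the K43M lists. It missed the threshold with any other library left out, at -0.48 without WT unnumbered (limma adjusted p = 0.35), -0.80 without K43M replicate 1 (limma adjusted p = 0.284) and -0.38 without K43M replicate 2 (limma adjusted p = 0.491). Of all regions tested, 3.96% differed by as much or more. The stretch around its summit held a RUNX and an E-protein motif (CACCTG), the latter found at 16.3% of all regions. The fourth region lay 2360 bp downstream at the promoter of *Kdm4b*, a histone demethylase gene, with fold enrichments of 12.4 and 12.2 in WT and 13.2 and 13.7 in K43M. There both K43M lists were above both WT lists, by a log2 difference of 0.13 (95% CI -0.12 to 0.38, limma adjusted p = 0.713).

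*Dnmt3a*, a de novo methyltransferase on chromosome 12, had the most regions of the 7 genes. 12 regions lay in its window of 18 annotated starts, and 7 of them were in all lists. Its long transcripts begin at a 5′ promoter, and the short isoform known as Dnmt3a2 begins at an internal promoter far inside the gene. The upstream sequences of both are shown because both were open in every list while their CpG content differed.
Dnmt3a 5′ promoter, chr12:3806355-3806526: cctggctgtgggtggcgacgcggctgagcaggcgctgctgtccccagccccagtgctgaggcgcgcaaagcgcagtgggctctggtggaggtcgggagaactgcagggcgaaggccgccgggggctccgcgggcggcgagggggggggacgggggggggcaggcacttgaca
Dnmt3a internal promoter, chr12:3891425-3891625: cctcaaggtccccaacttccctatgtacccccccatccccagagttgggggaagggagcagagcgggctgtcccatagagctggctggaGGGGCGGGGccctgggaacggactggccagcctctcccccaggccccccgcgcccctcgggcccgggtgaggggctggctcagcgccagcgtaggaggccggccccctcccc
The 5′ region (chr12:3806237-3808050) covered the starts of Dnmt3a-201, Dnmt3a-202, Dnmt3a-204, Dnmt3a-206 and Dnmt3a-218 and was CpG-rich, with a CpG ratio of 0.703. The internal region (chr12:3891000-3892306) covered Dnmt3a-205 and Dnmt3a-203, 85721 and 85737 bp after the first start, and its ratio of 0.559 fell short of the limit. The internal stretch carries an SP1 motif (GGGGCGGGG, in capitals), which 5.91% of all regions held.

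Both promoters of *Dnmt3a* were open in all 4 lists. The 5′ region had fold enrichments of 6.83 and 5.59 in WT and of 8.39 and 6.33 in K43M, with a log2 difference of 0.24 (95% CI -0.22 to 0.70, limma adjusted p = 0.713). This was 0.05 on summit pileups, 0.09 without WT replicate 2 or without K43M replicate 1, 0.36 without WT unnumbered and 0.39 without K43M replicate 2. The internal region had 6.65 and 6.13 in WT and 6.61 and 7.39 in K43M, with a log2 difference of 0.13 (95% CI -0.31 to 0.57, limma adjusted p = 0.861). This was 0.45 on summit pileups, 0.00 without K43M replicate 2, 0.07 without WT replicate 2 and 0.27 without K43M replicate 1. The groups overlapped at the 5′ region and also at the internal one. No peak lay in the promoter window of the first annotated start, Dnmt3a-212. The summit of the 5′ region lay 448 bp after that start, past the 200 bp that the window covers. The windows of Dnmt3a-215, Dnmt3a-208, Dnmt3a-211 and Dnmt3a-213, between the promoters, held no peak either. A weak peak of K43M replicate 1 (fold enrichment 3.12, at percentile 4.06 of its list) lay before Dnmt3a-209 and Dnmt3a-217.

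Between these promoters the introns of *Dnmt3a* held further regions. The highest by rank lay 49879 bp after the first start (chr12:3855665-3856480), with fold enrichments of 11.8 and 12.7 in the WT lists and 11.7 and 9.84 in the K43M lists. Both WT lists were above both K43M lists, by a log2 difference of -0.19 (95% CI -0.47 to 0.09, limma adjusted p = 0.609). Summit pileups, before any centring, were 86 and 81 cuts in WT and 64 and 47 in K43M. On log2 summit pileups, centred on each list's median, the difference was -0.49 (95% CI -0.80 to -0.19, limma adjusted p = 0.0593). On fold enrichment it was -0.12 without K43M replicate 2. A region 40504 bp after the first start (chr12:3846132-3846633) had a fold enrichment of 4.69 in WT unnumbered, against 9.72 in the other WT list and 9.85 and 9.68 in K43M. WT unnumbered thus stood apart from the other lists. The log2 difference was 0.54 (95% CI -0.06 to 1.13, limma adjusted p = 0.464), it was -0.02 without WT unnumbered and 1.05 without WT replicate 2 (limma adjusted p = 0.00566). A region 3591 bp downstream of the gene (chr12:3917459-3918296) had 11.7 and 11.4 in WT and 13.7 and 13.5 in K43M. The groups did not overlap, and the log2 difference was 0.24 (95% CI -0.01 to 0.49, limma adjusted p = 0.437), but it was -0.02 on summit pileups.

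The strictly K43M-only regions of *Dnmt3a* were weak and lay in introns. The first, 17325 bp after the first start (chr12:3823213-3823752), had fold enrichments of 4.46 in K43M replicate 1 and 5.70 in K43M replicate 2, at percentiles 12.6 and 36.2 of their lists by q value. The nearest WT peak was 529 bp away, in a neighbouring region that all 4 lists held. The second, 33840 bp after the first start (chr12:3839700-3840023), had 5.65 and 4.72, at percentiles 23.6 and 7.45, and the nearest WT peak was 4765 bp away. Neither was strictly K43M-only among the best 20000 peaks of each list. The first also lost this class with equal numbers of peaks per list, and the second at a -log10 q of at least 5. A region at the promoter of *Dnmt3aos*, a transcript antisense to *Dnmt3a*, had no peak in WT unnumbered, a fold enrichment of 5.80 in WT replicate 2, and 7.85 and 9.71 in the K43M lists. ATAC-seq does not tell the strands apart, and the *Dnmt3b* and *Tet2* promoter regions likewise hold starts of neighbours, *Dnmt3bos* and Gm42567. The other intronic regions of *Dnmt3a* were 1 with 6.20 and 4.21 in WT and 4.19 and 5.16 in K43M, 1 with 8.57 and 8.67 in WT and 12.6 and 8.33 in K43M, and 1 listed only in WT unnumbered (5.97) and K43M replicate 1 (4.42).

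*Dnmt3b*, the second de novo methyltransferase (chromosome 2), had 1 promoter region (chr2:153649181-153650273) for 10 of its 12 starts. Its summit fell on the start of Dnmt3b-201, and the sequence upstream of the first start is shown with an SP1 motif in capitals.
Dnmt3b promoter, chr2:153649354-153649449: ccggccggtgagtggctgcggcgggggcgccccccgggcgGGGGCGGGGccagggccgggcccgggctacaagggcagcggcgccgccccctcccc
Fold enrichments were 7.07 and 8.25 in WT and 7.69 and 6.94 in K43M. The groups overlapped, with 7.66 ± 0.834 in WT and 7.32 ± 0.529 in K43M (SD, n = 2 each). No region lay within the body of the gene away from its start. The window reached the promoter of *Dnmt3c*, a rodent paralog known from the male germline, where WT replicate 2 alone had a peak (fold enrichment 7.48). These genes are paralogs, and reads that map to several places had been removed before peak calling, so the value at *Dnmt3c* is uncertain.

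*Tet1* (chromosome 10, minus strand) had a single region among 10 annotated starts and 104 kb of gene. The region (chr10:62893478-62893863, the first sequence shown above) was in an intron, 712 bp before the start of Tet1-209 and 15298 bp after the first start, Tet1-208. It had fold enrichments of 10.5 in K43M replicate 1 and 7.50 in K43M replicate 2, from summit pileups of 32 and 20 cuts, and no peak in either WT list. The K43M peaks stood at percentiles 72.2 and 53.9 of their lists by q value. The nearest WT peak was 26394 bp away. The region also overlaps the promoter window of Gm26479, a small nuclear RNA gene within the intron. No list had a peak at the other 9 starts of *Tet1*, the first annotated ones, Tet1-208 and Tet1-206, included. The region stayed strictly K43M-only among peaks with a -log10 q of at least 5 and among the best 20000 peaks of each list. It does not count as a promoter where windows reach only 500 bp from a start.

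*Tet2* (chromosome 3, minus strand) and *Tet3* (chromosome 6, minus strand) each had 1 promoter region in all lists. Their sequences are shown as CpG-rich promoters, with SP1 motifs (which overlap each other) and an E-protein motif in capitals at *Tet3*. The *Tet2* stretch held no match.
Tet2 promoter, chr3:133544391-133544472: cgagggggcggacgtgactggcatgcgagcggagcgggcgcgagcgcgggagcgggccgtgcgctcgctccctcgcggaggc
Tet3 promoter, chr6:83456715-83456915: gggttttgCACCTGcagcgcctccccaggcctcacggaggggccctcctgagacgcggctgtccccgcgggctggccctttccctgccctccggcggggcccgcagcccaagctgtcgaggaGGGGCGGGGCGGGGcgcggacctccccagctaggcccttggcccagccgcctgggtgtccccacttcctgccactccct
CpG ratios were 0.921 at *Tet2* and 0.802 at *Tet3*, whose summits lay 4 bp before the start of Tet2-204 and 423 bp before that of Tet3-203. The ratio of 0.177 at *Tet1* is that of an intronic region 712 bp before Tet1-209. CpG content at the other starts of *Tet1* was not measured.

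At the *Tet2* promoter (chr3:133543641-133545142) fold enrichments were 6.68 and 4.31 in WT and 7.21 and 6.62 in K43M. The groups overlapped, with 5.50 ± 1.67 in WT and 6.91 ± 0.417 in K43M (SD, n = 2 each), and the log2 difference was 0.37 (95% CI -0.15 to 0.88, limma adjusted p = 0.586). It was 0.04 without WT replicate 2 and 0.65 without WT unnumbered. The summit pileup itself was 38 and 16 cuts in WT and 79 and 44 cuts in K43M. Both K43M lists were above both WT lists on this scale. The median-centred log2 difference was 1.32 (95% CI 0.71 to 1.93, limma adjusted p = 0.0152). The local background that enters the fold enrichment was 4.84 and 2.94 cuts in WT and 10.1 and 5.80 in K43M. Its part in this difference was not tested. Peaks reached the promoter window of Tet2-205, the first annotated start, in both K43M lists and in neither WT list. They are the edge of this same promoter region, which every list held. The share of all starts with such a pattern was not counted.

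Upstream of *Tet2* lay a strictly K43M-only region. Its fold enrichments were 6.44 in K43M replicate 1 and 6.25 in K43M replicate 2, from 37 and 23 cuts, at percentiles 63.4 and 51.0 of their lists. K43M replicate 1 had another peak between this region and the promoter (fold enrichment 3.77). Like the *Tet1* region, the upstream *Tet2* region stayed strictly K43M-only among peaks with a -log10 q of at least 5 and among the best 20000 peaks of each list.

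At the *Tet3* promoter (chr6:83455424-83457211) the lists had fold enrichments of 5.99 and 6.25 in WT and 6.58 and 6.06 in K43M, and the groups overlapped with 6.12 ± 0.187 in WT and 6.32 ± 0.370 in K43M (SD, n = 2 each). It was the promoter of Tet3-203, and the first annotated start, Tet3-204, had no peak. The other 5 regions of the *Tet3* window were each in 1 list. The peak of K43M replicate 2 with fold enrichment 5.34 lay at the internal starts of Tet3-201, Tet3-202 and Tet3-205 and of the neighbour B230319C09Rik. The rest had fold enrichments of 3.93 and 5.05 in K43M replicate 1, 5.59 in K43M replicate 2 and 5.26 in WT replicate 2. The highest percentile among these 5 was 22.9, so all were among the weaker peaks of their lists.

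**Figure D3:**
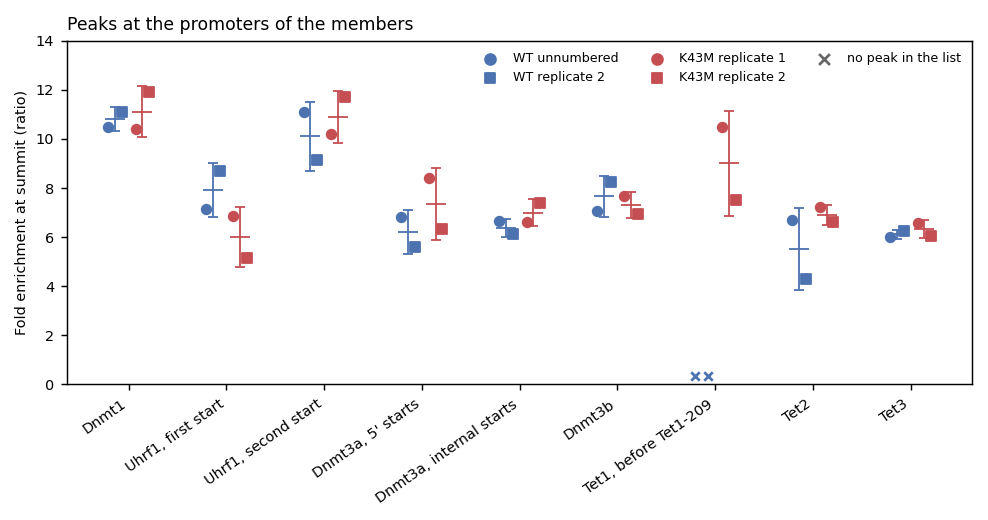
Fold enrichment at the summit (ratio) of the promoter regions, one point per list (blue WT, red K43M), with bars for the mean and SD of 2 lists. *Dnmt1* and the second start of *Uhrf1* stand highest, and *Tet1* has points of 10.5 and 7.50 for K43M and crosses for both WT lists, which have no peak there.

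Across the 16 regions that every list held, the median log2 difference was 0.08, with a range from -0.59 to 0.54, and 10 were higher and 6 lower in K43M. The median over all 21012 such regions was 0.00. At a limma adjusted p under 0.05, 0 of the 16 regions were called, and 1 of 16, the *Uhrf1* intronic region, had an unadjusted p under 0.05, against 12.2% of all regions. Among all regions 13 were called higher in K43M (0.0619%) and 10 lower (0.0476%). The 8 promoter regions among the 16 ranged from -0.40 to 0.37. The median SE over all regions was 0.18 on this log2 scale.

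**Figure D4:**
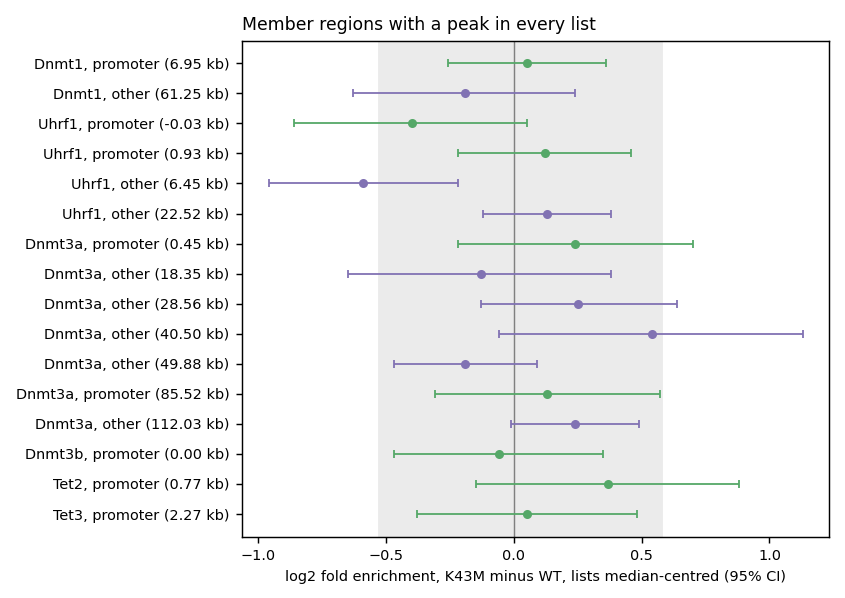
Difference in log2 fold enrichment, K43M minus WT, of the 16 regions held by every list (points, with 95% CI from limma), labelled by the distance of the summit from the first start. Green marks promoters and purple other regions; the grey band spans the central 95% of all 21012 regions, from -0.53 to 0.58, and the *Uhrf1* intronic region at 6.45 kb is the point outside it.

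The genes that work with the 7 enzymes were mostly open in all lines. Of 41 partner genes, 35 were open at a promoter in all 4 lists, against 47.6% of all protein-coding genes, and 1 in the K43M lists alone, against 2.00%. A further 2 had a promoter peak in a part of the lists and 3 in none. Among 8 partners of maintenance and de novo methylation, 6 were open in all lists, among them *Uhrf2*, *Hells* (a chromatin remodeller) and *Cdca7*, its activator, while *Dnmt3l*, a germline cofactor of DNMT3A, and *Zfp57*, an imprinting factor, had no promoter peak. Among 7 genes for readers of methylated CpG and their relatives, 6 were open in all lists, including *Mbd1*, *Mbd2* and *Mbd3*. *Zbtb4* had fold enrichments of 4.85, 6.25 and 6.66 in WT unnumbered, WT replicate 2 and K43M replicate 1 and no peak in K43M replicate 2.

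Of 11 genes of active demethylation and base excision repair, 10 were open in all lists, including *Tdg*, which removes oxidised methylcytosine, *Mbd4* and *Smug1*. *Gadd45g* lacked a peak in K43M replicate 2, with 5.64, 5.06 and 5.79 in the other lists. Of 6 TET partners and CXXC genes, 4 were open in all lists, including *Ogt*, whose protein binds the TET enzymes, and *Cxxc1*. *Cxxc4*, whose protein binds TET2, had promoter peaks in the K43M lists only, of 5.13 in replicate 1 and 4.44 in replicate 2, at percentiles 24.2 and 6.57. This pattern was lost among peaks with a -log10 q of at least 5. *Wt1*, which recruits TET2 in other blood cells, had no promoter peak. All 9 genes that supply the methyl donor or 2-oxoglutarate, such as *Mat2a*, *Mat2b* and *Ahcy*, were open in all lists. Over the 41 promoter regions of these genes that all lists held, log2 differences ranged from -0.37 to 0.56 with a median of 0.04, and limma called 0 at an adjusted p under 0.05 and 5 at an unadjusted p under 0.05, against 12.2% of all regions.

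**Figure D5:**
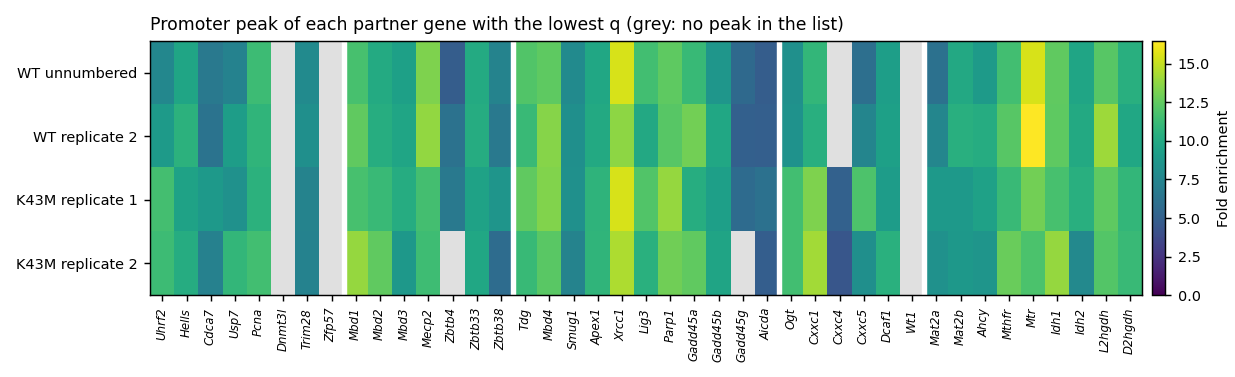
Fold enrichment (colour) of the promoter peak with the lowest q value for 41 partner genes (columns, in 5 groups from maintenance partners to methyl donor supply) in the 4 lists (rows), with grey where a list has no peak. Grey fields are those of *Dnmt3l*, *Zfp57* and *Wt1* in all lists, *Cxxc4* in both WT lists, and *Zbtb4* and *Gadd45g* in K43M replicate 2.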

How the data were processed

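Chromatin accessibility had been measured by ATAC-seq in 4 BCR-ABL(p185) lines, and 4 lists of peaks were used. Per the labels and the methods, the authors trimmed reads with Trimmomatic 0.36, mapped them to mm10 with BWA 0.7.15, filtered them with SAMtools 1.3.1 and bedtools, and called peaks per library with MACS2 2.1.0, extending each cut to 200 bp. Deposited values were the fold enrichment of each summit, a ratio to the local background of the same library, and the -log10 p and -log10 q values, which the authors' caller adjusted within the list. No read counts were used. Summit pileups and backgrounds were recovered from fold enrichment and -log10 p, with success for 100% of peaks.

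The members and gene lists were chosen with earlier results of these data known. Peaks overlapping by 1 bp were merged across lists. Promoters ran from 2000 bp before to 200 bp after every start in GENCODE mouse release 21. Heights of regions in all 4 lists were compared as log2 fold enrichment, centred on each list's median, with limma 3.58.1 in R 4.3.3 (empirical Bayes with trend, Benjamini-Hochberg adjustment over 21012 regions). Each region's spread between 2 lines per genotype is drawn toward a trend over all 21012 regions. The p-values and intervals thus rest in part on the spread of other regions. A peak's height is the authors' ratio and not a count. The numbers of peaks per list were compared by an exact permutation test. The limma fit and the pileup recovery were tested on simulated data. Sequences of main promoters and strictly K43M-only regions, and of the other promoter of *Uhrf1* and *Dnmt3a*, were read from GRCm38 with samtools 1.23.1 and pysam 0.24.0. They were shortened where annotated UTR fell within 100 bases of the summit, and CTCF was searched by its consensus. The sequence of 1 strictly K43M-only region is not reported here. Named regions were those at promoters of the members, the strictly genotype-only ones, any past the limma threshold, and the best ranked other region of each member; further regions, such as those in *Uhrf1* and *Dnmt3a* introns, were named after their values were seen. Partner genes were named where a list lacked a promoter peak, otherwise the first 3 of a list at most. Alternatives were a -log10 q of at least 5, equal numbers of peaks, other windows, overlaps and scalings, and leaving out each library.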

Additional observations from a re-analysis of the deposited data

How the results depend on the processing

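The difference in peaks per list, K43M minus WT, was 3.5 to 10.5 under the alternatives run. Among the best 20000 peaks of each list the windows held 19 regions. With 50 kb on both sides they held 76, with 41 in all lists and 1 strictly WT-only. *Tet1* no longer counted as K43M-only at its promoter with windows of 500 bp (0 genes), and no partner gene did (0) at a -log10 q of at least 5. Leaving out 1 library gave 4 to 8 strictly K43M-only regions (8 without either K43M list, where 1 list suffices) and 0 to 4 strictly WT-only regions. Partner promoters in the WT lists only numbered 0 to 2, with 2 without K43M replicate 1. With 1 list left out, the lone list was assumed to vary like the other genotype.

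Numbers of limma calls depended on the fit. Of all regions, 0 were called in either direction without centring (2326 at an unadjusted p under 0.05) and without the trend (2610). With quantile normalization 6 were higher and 4 lower, and at a -log10 q of at least 5 there were 24 higher and 15 lower. On summit pileups 503 were higher and 422 lower. Leaving out 1 library gave 0 to 317 higher and 0 to 132 lower, with 272 and 98 without WT unnumbered, 317 and 132 without WT replicate 2, and 0 without K43M replicate 1 (2400 at an unadjusted p under 0.05) or replicate 2 (2245). Member regions called were 1 on summit pileups (*Tet2* promoter) and 0 to 2 with 1 library left out, both without WT replicate 2 (*Uhrf1* and *Dnmt3a* introns). The *Dnmt3a* intronic region at 40504 bp ranged from -0.02 to 1.05 in log2 difference with 1 library left out, and the *Dnmt3a* downstream region was at -0.02 on summit pileups. Of the 16 member regions, 8 kept 1 sign in all 10 fits. The cause of these changes was not tested. No paired analysis was possible because the genotypes share only 1 replicate number and the peak lists mark separate lines. At the genome-wide background, depth and the peak threshold limit the lists to summits of at least 6 or 7 cuts.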
